A study of Mus musculus with 12 samples.

Results

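Semaphorins, plexins, neuropilins, Eph receptors and ephrins form the main families of contact and short-range guidance signals between cells, and their genes were followed here in cultured mouse vascular smooth muscle cells. The set held 54 of the 55487 genes in the table. They were the protein-coding genes whose symbol begins with Sema, Plxn, Epha, Ephb, Efna or Efnb and a number, both neuropilins (Nrp1 and Nrp2), and Ngef, which encodes the Eph-binding exchange factor ephexin-1. Of these, 46 reached a level of at least 1 CPM (reads normalised to 1000000 per library) in at least 3 of the 12 libraries and so belonged to the 14202 genes that were tested. Primary smooth muscle cells came from wild-type mice, or from mice labelled as knockouts of Tigar, all 4 to 6 weeks of age, and were used at passages 4 to 6 in medium with fetal bovine serum. Each genotype was left untreated or received PDGF-BB, the growth factor dimer that drives smooth muscle migration and division, at 40 µg/L for 6 h. This gave 4 groups of 3 RNA-seq libraries. How the knockout allele was made, which vessel was used and from how many animals each group was drawn are not given in the sources used here, so the p-values measure the spread between these libraries, which may be technical.

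Semaphorins are secreted or membrane-bound ligands that signal through plexins, and most secreted class 3 semaphorins need a neuropilin as co-receptor. Activated plexins lower integrin adhesion and collapse the actin front of a cell through small GTPases. Ephrins are ligands anchored in the membrane of the neighbouring cell, ephrin-A by a lipid and ephrin-B by a transmembrane segment, and they bind the Eph receptor tyrosine kinases. In blood vessels these families are known for setting arterial and venous boundaries, for septation of the outflow tract and for repulsion between migrating cells.

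Libraries held between 14953807 and 21698488 reads. Replicate 1 of the wild-type cells with PDGF-BB stood apart by its deviation from the mean of the other libraries of its group. The root mean square of this log2 deviation was 0.416 over all tested genes, against 0.143 to 0.293 in the other 11 libraries. In replicate 1 the deviations fell with exon length (Spearman correlation -0.58 across genes), while in replicates 2 and 3 they rose with it (0.43 and 0.53). Replicates 2 and 3 were measured against means that include replicate 1, so these are not separate trends. The guidance genes are long, with a median exon length of 4334 bases against 2864 over all tested genes, and their median deviation in replicate 1 was -0.16. The Tigar transcript was no lower under the knockout label: it stood at 7.50 ± 0.955 CPM (SD, n = 3) in untreated wild-type cells and 11.2 ± 1.12 CPM in untreated labelled knockout cells, a log2 difference of 0.52 (adjusted p = 0.00209). The genotype is therefore given as labelled throughout. Smooth muscle markers were summed at 4297 to 6037 CPM without PDGF-BB, although Tagln had group means of 3.41 to 6.93 CPM. Summed endothelial markers were 144 to 156 CPM in untreated wild-type and 679 to 779 CPM in untreated labelled knockout libraries. Summed macrophage markers were 126 to 135 and 30.0 to 35.6 CPM in the same groups, and lymphocyte markers peaked at a sum of 1.00 CPM.

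Compared per kilobase of exon, Sema3c, a secreted ligand of the neuropilin and plexin-D1 receptors, was the highest of the family in untreated wild-type cells at 286 ± 5.13 CPM per kb (SD, n = 3). Efnb2 (ephrin-B2, a marker of arterial vessels) followed at 109 ± 1.37 CPM per kb and Plxnb2 at 98.5 ± 2.37 CPM per kb, 2 neighbours in this order separated by more than their SDs. Sema3f stood at 73.4 ± 1.59, Sema3a at 63.9 ± 1.12 and Plxna1 at 40.3 ± 1.06 CPM per kb. In untreated labelled knockout cells Sema3f was first at 116 ± 5.31 CPM per kb and Sema3c stood at 78.6 ± 5.86 CPM per kb. At the other end, Plxnc1, the receptor of semaphorin 7A, was the lowest tested member at 0.181 ± 0.0227 CPM per kb in untreated wild-type cells.

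The 8 genes below the filter were led by Efnb3, which peaked at 1.48 CPM and passed 1 CPM in 2 libraries, Ephb1 (highest value 0.968 CPM), Sema5b (0.307), Plxnb3 (0.252), Epha5 (0.199) and Epha10 (0.138). No read was assigned to Epha6 or Epha8 in any library, which at these depths allows up to 0.138 to 0.201 CPM (3 reads, counting error only). Just inside the filter lay Sema4a, which reached 1 CPM in 3 libraries with a highest value of 1.03 CPM, and Plxnc1, which did so in 5 with a highest value of 1.45 CPM.

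Treated and untreated cells were compared first, within each genotype. In wild-type cells 35 of 46 members changed (76.1%), 11 higher and 24 lower, at an adjusted p under 0.05 in a limma fit of log2(CPM + 1). Over all tested genes 59.4% were called in this comparison, 25% higher and 34.4% lower. In labelled knockout cells 27 members changed (58.7%), 11 higher and 16 lower, beside 42.4% of all genes, 17.6% higher and 24.8% lower. All 27 were also called in wild-type cells, 26 of them in the same direction and Epha4 in the opposite one, and 8 were called in wild-type cells alone. The matching counts over all genes were not made. Of these 8 members, Sema3a, Nrp2, Plxna4 and Efnb2 were called in labelled knockout cells too without replicate 1 of the treated wild-type cells. Over all genes 8079 were then called in labelled knockout cells, in place of 6025. The difference between the genotypes was itself tested and is given further on. Of the called members, 17 changed by at least 1 on the log2 scale in wild-type cells (9.94% of all genes did) and 5 in labelled knockout cells (4.13%). Among these were 4 members that did so in both genotypes: Ngef, the ephrin-A receptor Epha2 and the membrane semaphorin Sema5a rose, and the membrane semaphorin Sema6c fell. Because 1 CPM is added before taking logs, these log2 changes understate the change of genes at low levels. Fitted changes are given ± SE, from 3 libraries a group.

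**Figure D1:**
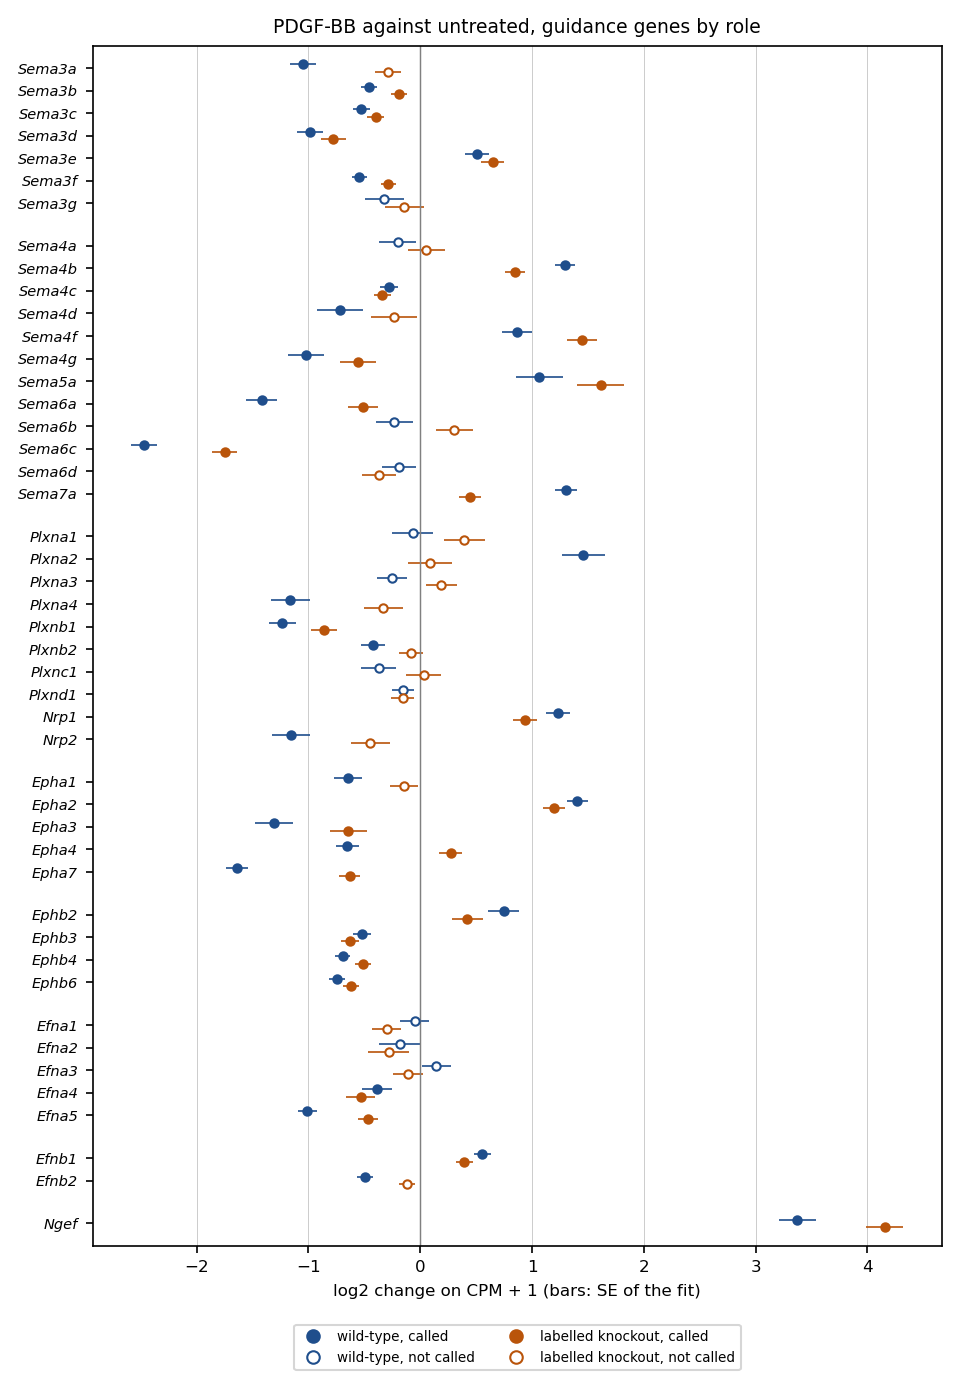
Log2 change with PDGF-BB on the CPM + 1 scale (horizontal axis) of the 46 tested guidance genes, ordered by role, in wild-type and labelled knockout cells; points are fitted changes, bars their SE, and filled points were called. Ngef lies farthest right at 3.37 and 4.16, and Sema6c farthest left at -2.47 and -1.75.

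The promoters of these 4 genes are shown because they are the members with the largest changes shared by both genotypes. Each run covers 250 bases before to 50 bases after the RefSeq transcription start, 5′ to 3′ on the gene's strand, on GRCm38.p6. Capitals mark a match to one of the motifs searched on both strands.
Ngef promoter, chr1:87573821-87574120, minus strand: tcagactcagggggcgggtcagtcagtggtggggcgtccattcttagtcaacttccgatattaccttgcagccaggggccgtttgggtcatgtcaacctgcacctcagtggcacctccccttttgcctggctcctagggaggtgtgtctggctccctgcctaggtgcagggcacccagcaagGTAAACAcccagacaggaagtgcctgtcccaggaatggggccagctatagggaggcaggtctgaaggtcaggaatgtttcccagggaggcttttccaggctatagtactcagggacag
Epha2 promoter, chr4:141300971-141301270, plus strand: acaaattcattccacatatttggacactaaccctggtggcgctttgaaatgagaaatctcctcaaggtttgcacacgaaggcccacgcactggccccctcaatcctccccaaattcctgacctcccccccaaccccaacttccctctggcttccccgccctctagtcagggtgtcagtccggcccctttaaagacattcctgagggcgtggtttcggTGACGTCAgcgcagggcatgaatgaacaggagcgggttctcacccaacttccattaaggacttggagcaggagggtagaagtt
Sema5a promoter, chr15:32244563-32244862, plus strand: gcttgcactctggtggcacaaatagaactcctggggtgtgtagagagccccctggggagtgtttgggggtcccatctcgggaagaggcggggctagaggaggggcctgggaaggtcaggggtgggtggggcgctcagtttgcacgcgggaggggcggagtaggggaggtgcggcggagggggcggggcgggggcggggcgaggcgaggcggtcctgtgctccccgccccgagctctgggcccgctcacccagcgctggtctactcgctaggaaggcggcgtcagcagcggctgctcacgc
Sema6c promoter, chr3:95164089-95164388, plus strand: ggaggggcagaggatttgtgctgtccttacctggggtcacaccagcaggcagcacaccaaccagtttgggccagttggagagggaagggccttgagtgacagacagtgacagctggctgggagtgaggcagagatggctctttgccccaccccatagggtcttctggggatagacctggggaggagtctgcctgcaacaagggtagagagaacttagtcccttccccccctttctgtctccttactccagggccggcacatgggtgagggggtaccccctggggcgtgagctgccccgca
The motifs searched were AP-1 (TGANTCA), the cAMP response element (TGACGTCA), the CArG box bound by serum response factor, the E-box CACGTG, the FoxO site GTAAACA, the EGR site GCGTGGGCG and the TATA box (TATAAA). In the Ngef window GTAAACA was found 68 bases upstream of the start, a match that 3.65% of 32851 promoters of this length hold. The Epha2 window held TGACGTCA 33 bases upstream of the start, a match present in 1.79% of promoters. Neither the Sema5a window nor the Sema6c window, which is the downstream of its listed starts, held any of these letters. The window of the upstream Sema6c start (chr3:95160170-95160469) covers the gene start at 95160457. That window is not printed here and held no match either. AP-1 letters occur in 7.81% of all promoters, the E-box in 7.15%, the TATA box in 13.6%, the CArG box in 1.63% and the EGR site in 0.612%. A match is a description of the letters in the window and no measurement of binding.

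Ngef showed the largest change of all members. This gene (ENSMUSG00000026259, chromosome 1, 87476834 to 87573870, minus strand, GRCm38.p6) encodes a guanine nucleotide exchange factor that couples EphA receptors to the actin cytoskeleton. Ngef stood at 1.32, 2.80 and 1.79 CPM in untreated wild-type libraries and at 33.6, 28.2 and 26.1 CPM with PDGF-BB, and at 0.654, 0.736 and 0.945 CPM in untreated labelled knockout libraries and 30.6, 27.2 and 34.5 CPM with PDGF-BB. Every treated library lay above every untreated one, in both genotypes. The log2 change was 3.37 ± 0.17 (adjusted p = 4.71e-09) in wild-type and 4.16 ± 0.17 (adjusted p = 4.79e-09) in labelled knockout cells. Over the 12 libraries the tested genes whose log2 profile was most like that of Ngef were Plat, with a Pearson correlation of 0.989, Tubb6 (0.987), Slc20a1 (0.986), Jpt2 (0.986) and Kctd11 (0.984), values that rest on the same treated and untreated libraries. Mean levels of Tubb6, for example, were 53.5 and 179 CPM in untreated and treated wild-type cells.

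Among the 7 secreted class 3 semaphorins, ligands of neuropilin and plexin complexes, 5 fell and 1 rose with PDGF-BB in wild-type cells, and 4 fell and 1 rose in labelled knockout cells. The shares called were 85.7% and 71.4%, beside 59.4% and 42.4% of all genes. Sema3a (ENSMUSG00000028883, chromosome 5, 13125414 to 13602565, plus strand), the classical repellent that acts through neuropilin-1, fell in wild-type cells. Sema3a stood at 165, 171 and 167 CPM in untreated wild-type libraries and at 78.2, 79.2 and 84.1 CPM with PDGF-BB, and at 39.1, 57.0 and 57.3 CPM in untreated labelled knockout libraries and 43.8, 41.3 and 38.5 CPM with PDGF-BB. The treated wild-type libraries all lay below the untreated ones, whereas the labelled knockout groups overlapped. Its log2 change was -1.05 ± 0.12 (adjusted p = 5.93e-06) in wild-type and -0.29 ± 0.12 (adjusted p = 0.0639) in labelled knockout cells. Sema3d fell by 0.98 and 0.78 on the log2 scale in the respective genotypes, Sema3b, Sema3c and Sema3f fell by 0.19 to 0.54, and Sema3e, which binds plexin-D1 without a neuropilin, rose by 0.51 and 0.65. Sema3g was not called in either genotype.

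Of the 12 tested membrane semaphorins of classes 4 to 7, 4 rose and 5 fell in wild-type cells, and 4 rose and 4 fell in labelled knockout cells. The shares called were 75% and 66.7%, beside 59.4% and 42.4% of all genes. The 4 that rose were Sema4b, Sema4f, Sema5a and Sema7a in both genotypes. Sema5a (ENSMUSG00000022231, chromosome 15, 32244810 to 32696341, plus strand) carries thrombospondin repeats and is a ligand of plexin-B3, whose own gene was below the filter. Sema5a stood at 31.6, 27.9 and 29.5 CPM in untreated wild-type libraries and at 38.8, 74.8 and 86.6 CPM with PDGF-BB, and at 29.8, 23.4 and 23.6 CPM in untreated labelled knockout libraries and 77.2, 82.2 and 81.0 CPM with PDGF-BB. Treated and untreated libraries did not overlap, and replicate 1 of the treated wild-type cells was the lowest treated library. The log2 change was 1.07 ± 0.21 (adjusted p = 0.000753) in wild-type and 1.62 ± 0.21 (adjusted p = 5.29e-05) in labelled knockout cells. Sema4b stood at 23.0, 23.3 and 25.4 CPM in untreated wild-type libraries and at 53.3, 65.9 and 62.3 CPM with PDGF-BB, and at 14.5, 14.0 and 12.7 CPM in untreated labelled knockout libraries and 26.2, 25.4 and 24.9 CPM with PDGF-BB. All 3 treated libraries were higher in each genotype, with a log2 change of 1.30 ± 0.089 (adjusted p = 7.66e-08) in wild-type and 0.85 ± 0.089 (adjusted p = 8.37e-06) in labelled knockout cells. Sema4f stood at 3.28, 3.56 and 3.87 CPM in untreated wild-type libraries and at 7.53, 7.05 and 7.42 CPM with PDGF-BB, and at 1.90, 1.60 and 2.67 CPM in untreated labelled knockout libraries and 8.16, 7.10 and 6.62 CPM with PDGF-BB. Its groups were separate by treatment, with log2 changes of 0.87 (adjusted p = 0.0001) and 1.45 (adjusted p = 2.56e-06).

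Sema7a encodes a semaphorin held by a lipid anchor, which binds plexin-C1 and integrin beta 1. Sema7a stood at 10.5, 12.7 and 10.3 CPM in untreated wild-type libraries and at 28.6, 29.2 and 28.9 CPM with PDGF-BB, and at 19.0, 17.2 and 19.7 CPM in untreated labelled knockout libraries and 24.1, 25.1 and 28.3 CPM with PDGF-BB. Its log2 change was 1.30 ± 0.096 (adjusted p = 1.47e-07) in wild-type and 0.45 ± 0.096 (adjusted p = 0.00219) in labelled knockout cells, with no overlap between treated and untreated libraries.

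The transmembrane ligand Sema6c (ENSMUSG00000038777, chromosome 3, 95160457 to 95174024, plus strand) fell farthest of all members. Sema6c stood at 18.6, 21.6 and 18.6 CPM in untreated wild-type libraries and at 2.79, 2.99 and 2.39 CPM with PDGF-BB, and at 12.04, 10.2 and 11.5 CPM in untreated labelled knockout libraries and 2.44, 2.48 and 3.00 CPM with PDGF-BB. Treated libraries of both genotypes lay in the same low range. The log2 change was -2.47 ± 0.12 (adjusted p = 3.1e-09) in wild-type and -1.75 ± 0.12 (adjusted p = 1.58e-07) in labelled knockout cells. Its relative Sema6a, a ligand of plexin-A2 and plexin-A4, also fell. Sema6a stood at 5.04, 5.45 and 4.77 CPM in untreated wild-type libraries and at 0.850, 1.40 and 1.66 CPM with PDGF-BB, and at 17.9, 13.9 and 16.3 CPM in untreated labelled knockout libraries and 11.2, 10.8 and 10.6 CPM with PDGF-BB. The 4 groups were separate, with log2 changes of -1.42 (adjusted p = 1.63e-06) in wild-type and -0.51 (adjusted p = 0.00871) in labelled knockout cells. Sema4g stood at 6.87, 6.62 and 8.52 CPM in untreated wild-type libraries and at 3.34, 2.92 and 3.00 CPM with PDGF-BB, and at 4.06, 3.48 and 2.84 CPM in untreated labelled knockout libraries and 2.72, 1.51 and 1.94 CPM with PDGF-BB. For Sema4g the log2 change was -1.02 (adjusted p = 0.000103) and -0.56 (adjusted p = 0.0123), with no overlap by treatment within a genotype.

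Receptors of the semaphorins moved in both directions. Among the 8 tested plexins and both neuropilins, 2 rose and 4 fell in wild-type cells, and 1 rose and 1 fell in labelled knockout cells. That was 60% and 20% called, beside 59.4% and 42.4% of all genes. The fit shares an estimate of spread over all groups, so replicate 1 of the treated wild-type cells also bears on the labelled knockout calls. Without that library 3 rose and 4 fell in each genotype. Of all 14202 genes 9044 were then called in wild-type and 8079 in labelled knockout cells, in place of 8431 and 6025. Nrp2 (adjusted p = 0.0152) and Plxna4 (0.00166) were then called lower in labelled knockout cells. Nrp1 (ENSMUSG00000025810, chromosome 8, 128358604 to 128503363, plus strand) encodes the co-receptor of Sema3a and of vascular endothelial growth factor A. Nrp1 stood at 75.1, 78.0 and 72.6 CPM in untreated wild-type libraries and at 143, 195 and 203 CPM with PDGF-BB, and at 136, 116 and 125 CPM in untreated labelled knockout libraries and 242, 232 and 251 CPM with PDGF-BB. Treated libraries were higher throughout, and the log2 change was 1.23 ± 0.11 (adjusted p = 8.43e-07) in wild-type and 0.94 ± 0.11 (adjusted p = 2.15e-05) in labelled knockout cells. Nrp2 binds Sema3f and vascular endothelial growth factor C, and it went the other way in wild-type cells. Nrp2 stood at 18.0, 13.5 and 16.8 CPM in untreated wild-type libraries and at 5.22, 7.11 and 7.79 CPM with PDGF-BB, and at 3.40, 3.34 and 4.34 CPM in untreated labelled knockout libraries and 2.03, 2.09 and 3.31 CPM with PDGF-BB. In wild-type cells the treated libraries all lay below the untreated ones with a log2 change of -1.15 ± 0.17 (adjusted p = 7.91e-05), while in labelled knockout cells the change of -0.45 was not called (adjusted p = 0.0527), although the ranges did not overlap there either.

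Plxna2 encodes a receptor of semaphorin 6A and a partner of the neuropilins. Plxna2 stood at 56.8, 53.2 and 56.5 CPM in untreated wild-type libraries and at 97.5, 186 and 202 CPM with PDGF-BB, and at 113, 101 and 107 CPM in untreated labelled knockout libraries and 118, 107 and 118 CPM with PDGF-BB. The 3 treated wild-type libraries were higher than the untreated ones, with replicate 1 well below the other two, while the labelled knockout groups overlapped. The log2 change was 1.46 ± 0.19 (adjusted p = 2.74e-05) in wild-type cells and 0.09 ± 0.19 (adjusted p = 0.743) in labelled knockout cells, where its 95% confidence interval was -0.33 to 0.50. Plxna4 stood at 26.5, 23.0 and 23.6 CPM in untreated wild-type libraries and at 6.74, 12.2 and 13.2 CPM with PDGF-BB, and at 44.8, 39.2 and 36.8 CPM in untreated labelled knockout libraries and 33.4, 30.8 and 31.0 CPM with PDGF-BB. Plxna4, another receptor of semaphorin 6A, fell in wild-type cells with a log2 change of -1.16 ± 0.18 (adjusted p = 8.46e-05) and was not called in labelled knockout cells, whose ranges were also separate (-0.33, adjusted p = 0.149). Plxnb1 stood at 116, 116 and 115 CPM in untreated wild-type libraries and at 37.2, 55.3 and 55.7 CPM with PDGF-BB, and at 90.3, 81.7 and 81.1 CPM in untreated labelled knockout libraries and 47.0, 45.2 and 45.8 CPM with PDGF-BB. Plxnb1, which encodes the receptor of semaphorin 4D, fell in both genotypes without overlap, with log2 changes of -1.23 (adjusted p = 1.7e-06) and -0.86 (adjusted p = 8.46e-05). Plxna1 was not called in wild-type cells (log2 change -0.06), where its treated libraries stood at 228, 421 and 439 CPM, and without replicate 1 its change was 0.24 (adjusted p = 0.00381).

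Of the 5 tested EphA receptors, which bind ephrin-A ligands and in part ephrin-B, 1 rose and 4 fell with PDGF-BB in wild-type cells, and 2 rose and 2 fell in labelled knockout cells. Over all genes 59.4% and 42.4% were called. Epha2 (ENSMUSG00000006445, chromosome 4, 141301240 to 141329384, plus strand) was the only EphA gene that rose in wild-type cells. Epha2 stood at 42.3, 53.9 and 46.9 CPM in untreated wild-type libraries and at 116, 136 and 131 CPM with PDGF-BB, and at 38.4, 46.5 and 46.1 CPM in untreated labelled knockout libraries and 104, 99.0 and 101 CPM with PDGF-BB. Treated libraries stood well above untreated ones, with a log2 change of 1.41 ± 0.098 (adjusted p = 8.45e-08) in wild-type and 1.20 ± 0.098 (adjusted p = 8.92e-07) in labelled knockout cells. Epha7 stood at 11.2, 11.3 and 10.1 CPM in untreated wild-type libraries and at 2.67, 2.79 and 2.94 CPM with PDGF-BB, and at 10.9, 10.0 and 10.5 CPM in untreated labelled knockout libraries and 6.13, 6.32 and 6.75 CPM with PDGF-BB. Epha7 fell without overlap in both genotypes, with log2 changes of -1.64 in wild-type (adjusted p = 1.66e-08) and -0.63 in labelled knockout cells (adjusted p = 0.000156). Epha3 stood at 15.9, 15.4 and 16.5 CPM in untreated wild-type libraries and at 4.55, 6.11 and 7.11 CPM with PDGF-BB, and at 12.04, 8.49 and 8.68 CPM in untreated labelled knockout libraries and 7.24, 5.59 and 4.81 CPM with PDGF-BB. For Epha3 the change was -1.31 (adjusted p = 2.09e-05) in wild-type and -0.64 (adjusted p = 0.00746) in labelled knockout cells, again with no overlap by treatment. Epha4, the receptor through which ephexin-1 was characterised, fell in wild-type cells and rose in labelled knockout cells. Epha4 stood at 42.9, 45.7 and 38.1 CPM in untreated wild-type libraries and at 22.3, 30.1 and 27.5 CPM with PDGF-BB, and at 42.1, 46.7 and 45.7 CPM in untreated labelled knockout libraries and 57.7, 53.2 and 52.3 CPM with PDGF-BB. Its log2 change was -0.65 ± 0.10 (adjusted p = 0.000132) in wild-type and 0.27 ± 0.10 (adjusted p = 0.0484) in labelled knockout cells. The rise in labelled knockout cells lay close to the threshold and was called under 11 of 23 alternatives, with an adjusted p of up to 0.16.

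All 4 tested EphB receptors, whose ligands are mainly ephrin-B, were called in both genotypes, Ephb2 higher and Ephb3, Ephb4 and Ephb6 lower. Over all genes 59.4% were called in wild-type and 42.4% in labelled knockout cells. The log2 changes of the EphB genes lay between -0.74 and 0.75. Ephrin-A genes that were called fell: Efna5, the ligand of several EphA receptors, and Efna4 in both genotypes, while Efna1, Efna2 and Efna3 were not called. Without replicate 1 of the treated wild-type cells Efna1 was called lower in wild-type (-0.24, adjusted p = 0.0218) and labelled knockout cells (-0.30, adjusted p = 0.00259). Efna5 stood at 86.6, 83.7 and 85.8 CPM in untreated wild-type libraries and at 38.3, 42.9 and 44.9 CPM with PDGF-BB, and at 124, 101 and 99.9 CPM in untreated labelled knockout libraries and 75.0, 82.9 and 75.6 CPM with PDGF-BB. Treated libraries lay below untreated ones in each genotype, with log2 changes of -1.01 ± 0.088 (adjusted p = 6.69e-07) and -0.46 ± 0.088 (adjusted p = 0.00093). The tested ephrin-B genes split. Efnb1 rose by 0.56 and 0.40 in the respective genotypes and Efnb2 fell in wild-type cells by 0.50 on the log2 scale (adjusted p = 5.22e-05).

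**Figure D2:**
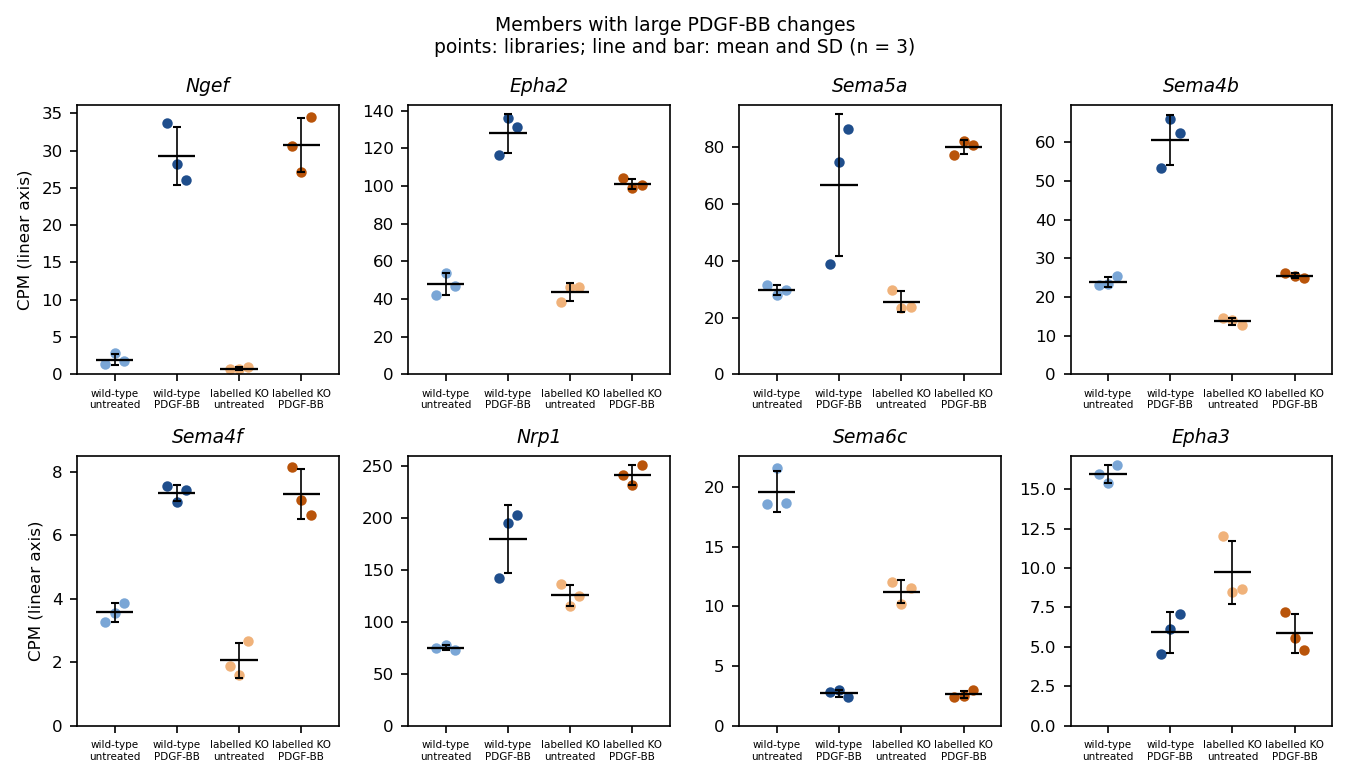
CPM on a linear axis of 8 guidance genes in each of the 12 libraries, 3 per group, with a line at the group mean and bars of 1 SD. Ngef was below 3 CPM in every untreated library and above 26 CPM in every treated one, whereas Sema6c and Epha3 were lower with PDGF-BB.

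The median log2 change of the 46 members with PDGF-BB was -0.38 in wild-type cells, beside -0.08 over all tested genes, and -0.17 in labelled knockout cells, beside -0.07. With the trend of each library with exon length removed, an alternative chosen after the data had been seen, the median in wild-type cells was -0.19, beside -0.01 over all genes. Scaling by TMM gave -0.32, beside -0.01, and leaving out replicate 1 of the treated wild-type cells gave -0.41, beside -0.09. Without replicate 1 of the treated wild-type cells, 38 members were called in wild-type and 36 in labelled knockout cells. Calls over all 14202 genes rose too, to 9044 in place of 8431 in wild-type and 8079 in place of 6025 in labelled knockout cells.

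The second comparison set labelled knockout against wild-type cells. Without PDGF-BB 32 of 46 members differed (69.6%), 12 higher and 20 lower in labelled knockout cells, where 34% of all genes were called, 9.15% higher and 24.8% lower. With PDGF-BB 27 members differed (58.7%), 11 higher and 16 lower, beside 37.2% of all genes, 10.6% higher and 26.6% lower. Called differences of at least 1 on the log2 scale were found for 9 members without PDGF-BB (5.26% of all genes) and 10 with it (4.72%). Sema3c, Nrp2, Epha1, Ephb6, Sema3a, Ephb2 and Plxna3 were among the lower genes in both comparisons, and Plxnd1, Sema6a, Plxna4, Sema3d and Nrp1 among the higher ones. In all, 21 members were called in both comparisons, which share no library, and each had the same direction in both. The matching count over all genes was not made, so it is not known whether this agreement is particular to the members. Scaling by TMM moved the median difference of all genes in untreated cells from -0.13 to -0.0071, and with PDGF-BB it turned the members' 11 higher and 16 lower into 14 higher and 12 lower. Over all genes TMM gave 1930 higher and 2034 lower without PDGF-BB, in place of 1300 and 3523, and 1928 higher and 2139 lower with it, in place of 1507 and 3777. No called member changed direction under TMM or any other alternative run.

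**Figure D3:**
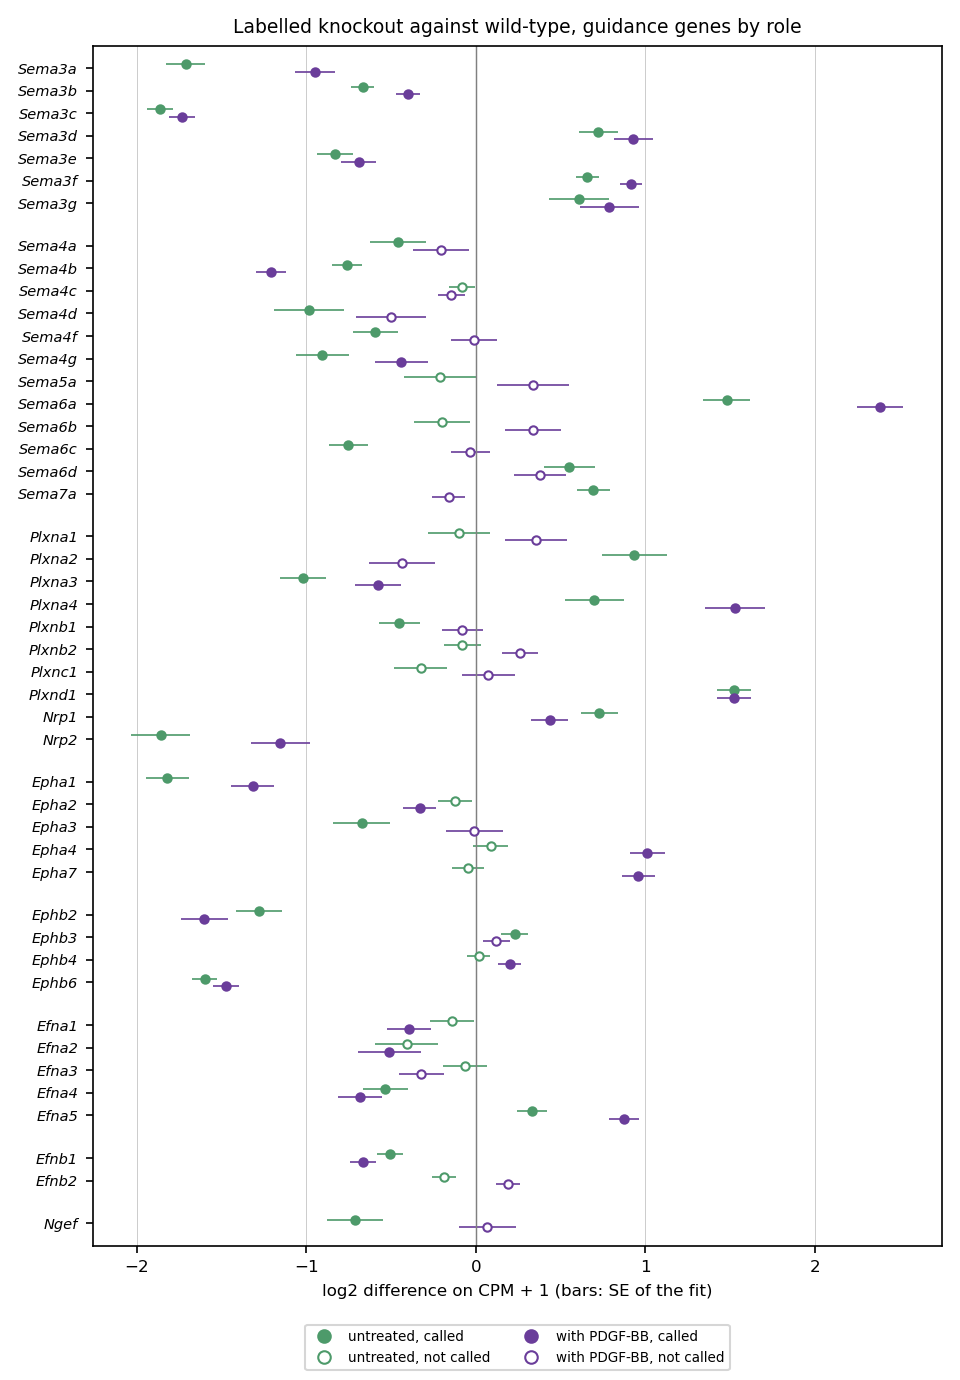
Log2 difference between labelled knockout and wild-type cells on the CPM + 1 scale (horizontal axis) for the 46 tested guidance genes, untreated and with PDGF-BB; points are fitted differences, bars their SE, and filled points were called. Sema3c lies at -1.86 and -1.73, Plxnd1 at 1.52 in both treatments, and Sema6a at 1.48 and 2.39.

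All 7 class 3 semaphorins differed by genotype label in both treatments, 4 lower and 3 higher in labelled knockout cells. Over all genes 34% were called without and 37.2% with PDGF-BB. Sema3c (ENSMUSG00000028780, chromosome 5, 17574281 to 17730268, plus strand) was the ligand with the largest of these differences. Sema3c stood at 1581, 1588 and 1536 CPM in untreated wild-type libraries and at 993, 1131 and 1148 CPM with PDGF-BB, and at 396, 459.6 and 438 CPM in untreated labelled knockout libraries and 312, 343 and 325 CPM with PDGF-BB. Each wild-type library lay above every labelled knockout library. The log2 difference was -1.86 ± 0.078 (adjusted p = 2.25e-09) without and -1.73 ± 0.078 (adjusted p = 3.31e-09) with PDGF-BB. For Sema3a, whose library values are given above, the difference was -1.71 ± 0.12 (adjusted p = 1.64e-07) without and -0.95 ± 0.12 (adjusted p = 3.56e-05) with PDGF-BB, again with no overlap between genotypes. Sema3b and Sema3e were also lower, with log2 differences from -0.83 to -0.40. The higher genes were Sema3d (0.72 and 0.93), Sema3f (0.66 and 0.92) and Sema3g (0.61 and 0.79).

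Receptors of these ligands differed too. Nrp2 was lower in labelled knockout cells, with a log2 difference of -1.86 ± 0.17 (adjusted p = 2.81e-06) without and -1.15 ± 0.17 (adjusted p = 0.000207) with PDGF-BB, and no library of one genotype reached the range of the other at the same treatment. Nrp1 was higher, with differences of 0.73 (adjusted p = 0.000215) and 0.44 (adjusted p = 0.00808). Plxnd1 (ENSMUSG00000030123, chromosome 6, 115954811 to 115995005, minus strand), the receptor of semaphorin 3E that is known from endothelium, showed a genotype difference in both treatments. Plxnd1 stood at 41.6, 41.9 and 43.7 CPM in untreated wild-type libraries and at 31.0, 40.7 and 43.3 CPM with PDGF-BB, and at 124, 121 and 127 CPM in untreated labelled knockout libraries and 107, 118 and 108 CPM with PDGF-BB. The labelled knockout libraries were all higher, by 1.52 ± 0.10 (adjusted p = 1.25e-07) without PDGF-BB and 1.52 ± 0.10 (adjusted p = 1.23e-07) with it, while PDGF-BB itself was not called for Plxnd1 in either genotype. In labelled knockout cells its treated libraries lay below the untreated ones (log2 change -0.16, adjusted p = 0.226). Without replicate 1 of the treated wild-type cells that change was called (adjusted p = 0.0133). The interval of the Plxnd1 interaction was -0.31 to 0.30. Plxna3 stood at 96.4, 95.1 and 90.2 CPM in untreated wild-type libraries and at 59.6, 85.1 and 96.0 CPM with PDGF-BB, and at 46.2, 41.5 and 50.2 CPM in untreated labelled knockout libraries and 55.6, 53.5 and 48.4 CPM with PDGF-BB. Plxna3, a neuropilin partner for class 3 ligands, was lower in labelled knockout cells without overlap, with log2 differences of -1.02 ± 0.14 (adjusted p = 7.57e-05) and -0.58 ± 0.14 (adjusted p = 0.0053). Plxna4 was higher by 0.70 (adjusted p = 0.00745) without and 1.53 (adjusted p = 1.86e-05) with PDGF-BB.

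Membrane semaphorins were called more often without PDGF-BB, where 3 were higher and 6 lower, than with it, where 1 was higher and 2 lower. These shares were 75% and 25%, beside 34% and 37.2% of all genes. The difference between these counts was not tested. Sema6a was higher in labelled knockout cells, with a log2 difference of 1.48 ± 0.14 (adjusted p = 2.7e-06) without and 2.39 ± 0.14 (adjusted p = 3.53e-08) with PDGF-BB. Sema4b was lower in both (-0.76, adjusted p = 2.51e-05, and -1.21, adjusted p = 3.24e-07), as was Sema4g (-0.91 and -0.44), whose difference with PDGF-BB was called under 7 of 22 alternatives. Sema4f, Sema6c and Sema7a differed only between untreated cells by the threshold used, with -0.59, -0.75 and 0.69 respectively, and of these Sema4f was not called in the interaction (adjusted p = 0.108). With PDGF-BB the Sema6c difference was -0.03, with a 95% confidence interval of -0.28 to 0.22.

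On the Eph side, 3 receptors were lower by at least 1 on the log2 scale in labelled knockout cells at both treatments. Epha1 (ENSMUSG00000029859, chromosome 6, 42358487 to 42373268, minus strand) was the lowest of these by level. Epha1 stood at 9.77, 10.2 and 11.0 CPM in untreated wild-type libraries and at 5.83, 6.58 and 6.25 CPM with PDGF-BB, and at 2.09, 2.27 and 2.22 CPM in untreated labelled knockout libraries and 1.98, 1.41 and 2.37 CPM with PDGF-BB. Wild-type libraries were above all labelled knockout libraries, with differences of -1.82 ± 0.13 (adjusted p = 1.99e-07) without and -1.32 ± 0.13 (adjusted p = 3.95e-06) with PDGF-BB. Ephb6 stood at 118, 120.0 and 135 CPM in untreated wild-type libraries and at 73.6, 74.2 and 73.6 CPM with PDGF-BB, and at 42.5, 39.7 and 38.8 CPM in untreated labelled knockout libraries and 27.1, 26.8 and 23.9 CPM with PDGF-BB. Ephb6, an Eph receptor that lacks kinase activity, was lower with log2 differences of -1.60 ± 0.075 (adjusted p = 5.64e-09) without and -1.48 ± 0.075 (adjusted p = 1.13e-08) with PDGF-BB, without overlap between genotypes. Ephb2 stood at 13.8, 16.1 and 15.1 CPM in untreated wild-type libraries and at 20.3, 29.5 and 28.5 CPM with PDGF-BB, and at 5.43, 6.22 and 5.12 CPM in untreated labelled knockout libraries and 7.70, 8.85 and 7.00 CPM with PDGF-BB. Ephb2 was lower with log2 differences of -1.28 ± 0.14 (adjusted p = 1.17e-05) without and -1.60 ± 0.14 (adjusted p = 1.39e-06) with PDGF-BB, and here too the genotypes were separate at each treatment. Epha3 was lower between untreated cells (-0.67, adjusted p = 0.00712) and was not called with PDGF-BB (-0.01), and its interaction was not called (adjusted p = 0.139). Epha4 and Epha7 were not called without PDGF-BB (0.09 and -0.05) and were higher with it, by 1.01 (adjusted p = 6.85e-06) and 0.96 (adjusted p = 4.84e-06).

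Among ligands, Efna5 was higher in labelled knockout cells by 0.33 (adjusted p = 0.0108) without and 0.87 (adjusted p = 5.87e-06) with PDGF-BB. Efna4 was lower with log2 differences of -0.53 and -0.68, as was Efnb1 with -0.51 and -0.67. Ngef was lower between untreated cells, with a log2 difference of -0.71 ± 0.17 (adjusted p = 0.00482), where its levels were below 3 CPM, and after PDGF-BB the difference was 0.07 with a 95% confidence interval of -0.29 to 0.43.

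**Figure D4:**
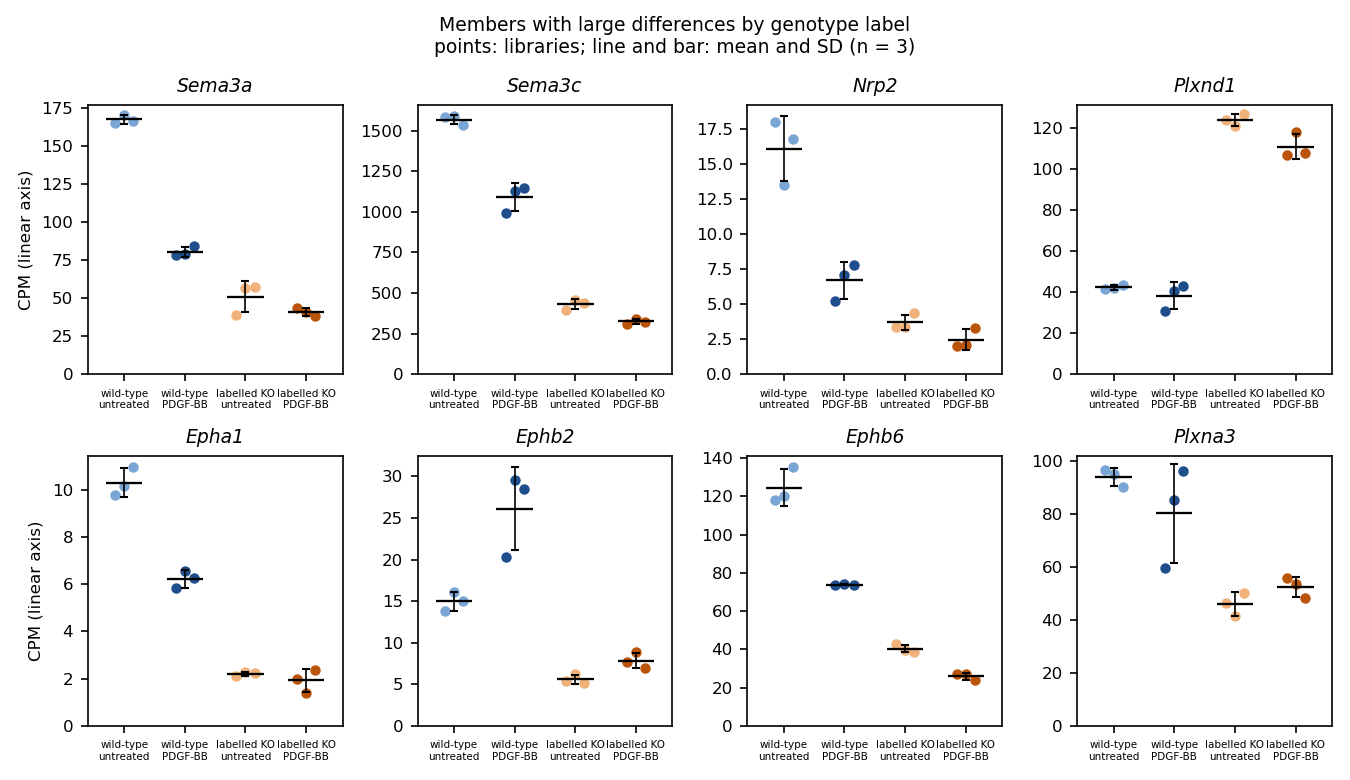
CPM on a linear axis of 8 guidance genes in each of the 12 libraries, 3 per group, with a line at the group mean and bars of 1 SD. Sema3c stood between 1536 and 1588 CPM in untreated wild-type libraries and between 396 and 460 CPM in untreated labelled knockout libraries, and Plxnd1 was higher in every labelled knockout library.

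Endothelial markers also differed by genotype label: all 8 tested of 9 were higher in labelled knockout cells at both treatments. Without PDGF-BB Pecam1 had means of 37.8 CPM in wild-type and 256 CPM in labelled knockout cells, and Cdh5 27.3 and 178 CPM. With PDGF-BB the endothelial sum was 111 to 116 CPM in wild-type and 621 to 644 CPM in labelled knockout libraries. Summed fibroblast markers were 1724 to 1822 CPM in untreated wild-type and 4371 to 4769 CPM in untreated labelled knockout libraries, a sum carried by Col1a1 (means of 1647 and 4505 CPM), while Pdgfra (101 and 84.7 CPM) and Dcn (14.1 and 12.7 CPM) had slightly lower means, and 2 of 5 tested fibroblast markers were called higher. Smooth muscle markers were called higher in labelled knockout cells for 5 of 10 without and 9 of 10 with PDGF-BB, and with PDGF-BB their sum was 2865 to 3211 CPM in wild-type and 5062 to 5202 CPM in labelled knockout libraries. Macrophage markers were lower in labelled knockout cells, 6 of 6 tested without and 5 with PDGF-BB. Plxnd1, Nrp1 and Sema6a, which are known from endothelium, were higher in labelled knockout cells, as were Sema3d, Sema3f, Sema3g, Plxna4 and Efna5. Nrp2 was lower (-1.86 without PDGF-BB). Untreated wild-type and labelled knockout means were 522 and 459 CPM for Efnb2, and 80.1 and 81.2 CPM for Ephb4. Of all 46 members 12 were higher and 20 lower without PDGF-BB. The part of any other cell type in these differences was not tested. In these bulk libraries fewer cells of a type and less RNA per cell cannot be told apart.

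Whether PDGF-BB acted differently in the 2 genotypes was tested by the interaction of treatment and genotype. It was called for 8 of 46 members (17.4%), 6 with a more positive and 2 with a more negative response in labelled knockout cells, beside 3.92% of all genes, 2.25% and 1.68% by direction. The members were the receptors Plxna2, Epha4 and Epha7 and the ligands Sema3a, Sema6a, Sema6c, Sema7a and Efna5. Plxna2 rose with PDGF-BB in wild-type cells only by the threshold used, and the difference in response was -1.37 ± 0.27 (adjusted p = 0.0133). For Epha7, which fell less in labelled knockout cells, it was 1.01 ± 0.13 (adjusted p = 0.00119). Epha4, which fell in one genotype and rose in the other, differed by 0.92 ± 0.15 (adjusted p = 0.00356). Sema7a rose less in labelled knockout cells, from a higher untreated level, with a difference of -0.86 ± 0.14 (adjusted p = 0.00361).

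Sema6a and Sema6c both fell less in labelled knockout cells, with a difference of 0.91 ± 0.19 (adjusted p = 0.0199) for Sema6a and 0.72 ± 0.16 (adjusted p = 0.0264) for Sema6c. The 2 genes differed in how they did so: Sema6c reached a like level after PDGF-BB from unequal untreated levels, while Sema6a kept a higher level in labelled knockout cells at both treatments. For Sema3a the difference was 0.76 ± 0.16 (adjusted p = 0.0207), and for Efna5 it was 0.54 ± 0.12 (adjusted p = 0.0278). The calls of Plxna2, Epha4, Epha7 and Sema7a held under all 22 alternatives run for them, and those of the other four were each lost under some, with adjusted p up to 0.0592 for Sema6a, 0.0666 for Sema3a, 0.0763 for Sema6c and 0.0891 for Efna5. Without replicate 1 of the treated wild-type cells 16 members were called, 11 positive and 5 negative, with Plxna2 at -1.70. Over all 14202 genes 1554 were then called in place of 557, 811 positive and 743 negative. Ngef had an interaction of 0.78 with a 95% confidence interval of 0.27 to 1.29 and was not called (adjusted p = 0.0875), and without that replicate it was 0.88 (adjusted p = 0.0172).

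**Figure D5:**
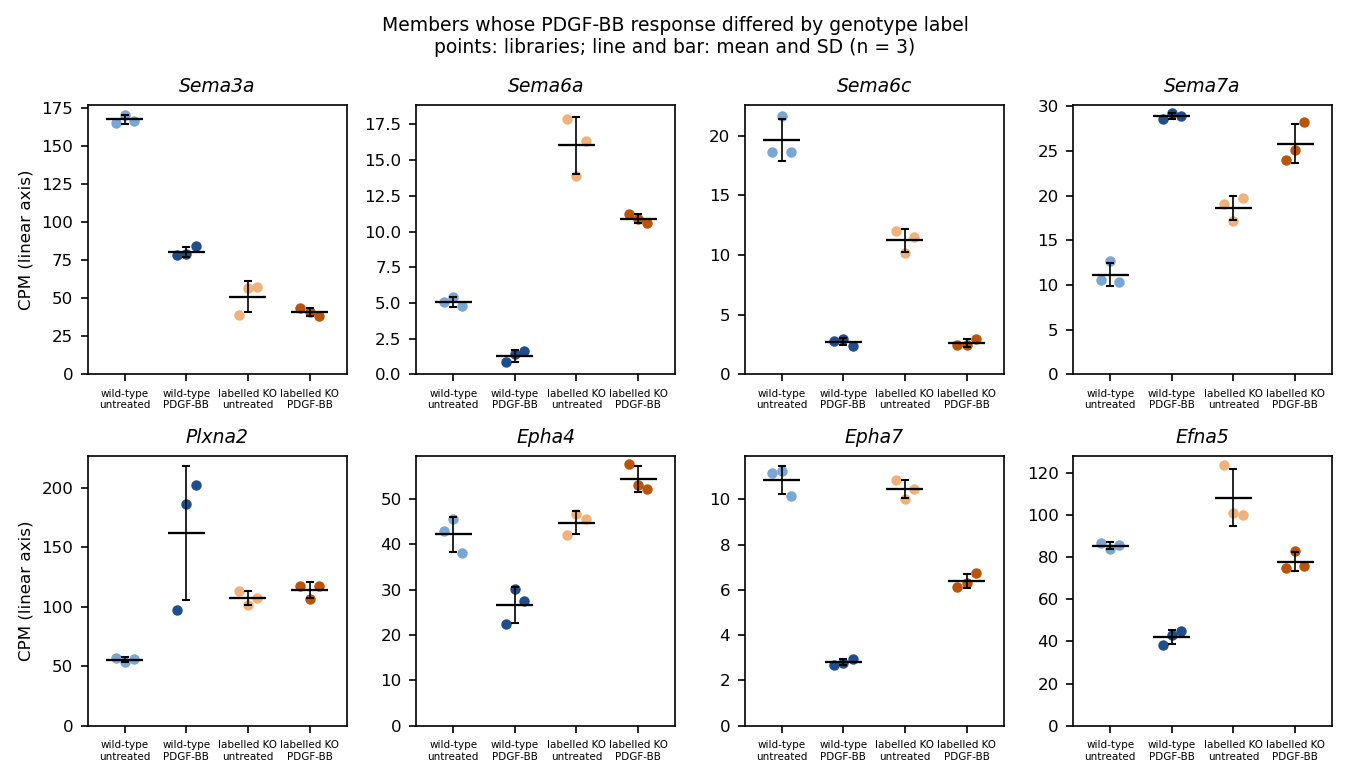
CPM on a linear axis of the 8 guidance genes called in the interaction, in each of the 12 libraries, 3 per group, with a line at the group mean and bars of 1 SD. Plxna2 stood between 53.2 and 56.8 CPM in untreated and between 97.5 and 202 CPM in treated wild-type libraries, and between 101 and 118 CPM in labelled knockout cells.

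Genes of the pathways around these families moved in both directions as well. Of 39 tested semaphorin signalling partners, 11 rose and 14 fell with PDGF-BB in wild-type cells, and 8 rose and 7 fell in labelled knockout cells. The shares called, 64.1% and 38.5%, were near the 59.4% and 42.4% of all genes. Met, the hepatocyte growth factor receptor that associates with class B plexins, fell by 1.67 on the log2 scale in wild-type cells. Rnd3, a small GTPase that loosens actin fibres, fell by 1.28 in wild-type and 0.84 in labelled knockout cells, and Rras2, of the R-Ras group that plexins inactivate, rose by 0.98 and 0.64. By genotype label, 3 of the partners were higher and 9 lower without PDGF-BB (30.8% called, beside 34% of all genes), and 8 higher and 10 lower with it (46.2%, beside 37.2%). Nrcam, an adhesion molecule that joins neuropilin complexes, was lower in labelled knockout cells at log2 differences of -1.35 and -1.72.

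Of 41 tested Eph and ephrin signalling partners, 10 rose and 12 fell with PDGF-BB in wild-type cells, and 9 rose and 8 fell in labelled knockout cells. These shares, 53.7% and 41.5%, lay at or below the 59.4% and 42.4% of all genes. Ptpn13, a tyrosine phosphatase that binds ephrin-B, fell by 1.90 on the log2 scale in wild-type and 1.96 in labelled knockout cells. Chn1, the Rac GTPase-activating protein downstream of Epha4, rose by 1.37 and 0.62. By genotype label 8 were higher and 9 lower without PDGF-BB (41.5% called, beside 34%), and 8 higher and 12 lower with it (48.8%, beside 37.2%). Arhgef15 (ephexin-5), a relative of Ngef, was higher in labelled knockout cells by 1.60 and 1.73, and Rgs3, a regulator of G-protein signalling that binds ephrin-B, by 1.51 and 1.46. In the interaction, 4 semaphorin partners (3 positive and 1 negative) and 2 Eph partners were called (10.3% and 4.88%, beside 3.92% of all genes), among the latter Chn1 with a difference in response of -0.75.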

How the data were processed

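Polyadenylated RNA libraries were made with a stranded Illumina kit, per the labels' protocols. Per the submitters' processing notes HISAT2, HTSeq and mm10 were used; versions and the strand setting of the counting are not given in the sources used here. The deposited table is named for FPKM, but its values are CPM, not divided by gene length: every library sums to 1000000 and 100% of values came out as whole reads within 0.001 read. Gene locations were those of GRCm38.p6 and matched for 54 of 54 members. Because the counting strand is not known, reads of opposite genes that overlap cannot be separated; such exonic overlap covered at most 14.1% of a member (Efna3).

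Group means of log2(CPM + 1) were fitted over all 12 libraries with limma 3.58.1 (trend, R 4.3.3), and p-values were adjusted by Benjamini-Hochberg over 14202 genes. Members called with a log2 change of at least 1, or in the interaction, are given per library; other members by ranges and counts; of each pathway list, up to 4 called genes with the largest change per comparison. Members and lists were chosen with earlier results of these data known. Alternatives were pseudocounts of 0.5 and 0.1, other filters and scalings, edgeR 4.0.16 and DESeq2 1.42.0 on the recovered reads, a replicate block, each library left out, and removal of the exon length trend. Promoter sequences came from RefSeq (GRCm38.p6), where 41 of 46 tested members had an entry.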

Additional observations from a re-analysis of the deposited data

Results flagged for a closer look

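The 8 guidance genes below were singled out because the test of the difference itself found a PDGF-BB response that was unequal between labelled knockout and wild-type cells. The difference in log2 response, labelled knockout minus wild-type, was -1.37 for Plxna2, -0.86 for Sema7a, 1.01 for Epha7, 0.92 for Epha4, 0.91 for Sema6a, 0.76 for Sema3a, 0.72 for Sema6c and 0.54 for Efna5. Epha4 alone among them was called in opposite directions in the 2 genotypes. Replicate 1 of the treated wild-type cells, the library that stood apart, was the lowest of its group for Plxna2, Sema6a, Epha4, Epha7, Sema3a, Sema7a and Efna5, but not for Sema6c. Without that library the difference was -1.70 for Plxna2, -0.86 for Sema7a, 0.98 for Epha7, 0.81 for Epha4, 0.76 for Sema6a, 0.74 for Sema3a, 0.73 for Sema6c and 0.48 for Efna5.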

How the results depend on the processing

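No called member result took the other sign under any alternative: of 129 such results 108 kept their call throughout and 21 lost it in at least 1 setting, 2 and 4 of them for PDGF-BB in wild-type and labelled knockout cells, 5 and 6 for genotype without and with PDGF-BB, and 4 for the interaction. The interaction moved most. Without a filter on low values it was called for 4 members in place of 8 and for 371 genes in place of 557. Over all genes it was called for 910 with DESeq2 and for 1131 with the exon length trend removed. Leaving out each library in turn gave 4 to 16 members and 274 to 1554 genes, the highest without replicate 1 of the treated wild-type cells. On the recovered reads edgeR called 8414 and 6030 genes for PDGF-BB in wild-type and labelled knockout cells, 3936 and 4141 by genotype without and with PDGF-BB, and 496 in the interaction. Fitting only the groups compared gave 3438 genes by genotype with PDGF-BB in place of 5284, and 6453 without it in place of 4823. For PDGF-BB this fit called 7114 genes in wild-type cells in place of 8431, and 7896 in labelled knockout cells in place of 6025. Members called for PDGF-BB were then 35 in wild-type and 34 in labelled knockout cells, and by genotype 33 without and 23 with PDGF-BB. Same-numbered libraries of different groups deviated together with a correlation over 0.1 in 3 of 18 pairs, and differently numbered ones in 7 of 36. These few correlations cannot settle whether libraries are paired. The labels do not say that a number marks a shared source, so the numbers were not taken to pair them. With a replicate block 6 members were called in the interaction, Sema6c (adjusted p = 0.0571) and Efna5 (0.0626) being lost, beside 417 of all genes in place of 557. Depth limits members near 1 CPM, such as Plxnc1 and Sema4a, which had at most 27 and 17 reads in any library.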

Other observations

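Further gene lists border on these families. Of 26 tested netrin, Slit, Robo, Unc5 and related guidance genes, 5 rose and 11 fell with PDGF-BB in wild-type cells, and 3 rose and 13 fell in labelled knockout cells. In each genotype 61.5% of the list was called, beside 59.4% of all genes in wild-type and 42.4% in labelled knockout cells. Unc5c, a repulsive netrin receptor, fell by 2.12 on the log2 scale in wild-type and 0.73 in labelled knockout cells, and Slit2, the ligand of the Robo receptors, fell by 1.21 in wild-type cells. By genotype label 7 were higher and 9 lower without PDGF-BB (61.5% called, beside 34% of all genes), and 8 higher and 10 lower with it (69.2%, beside 37.2%). Robo4, a receptor of endothelial cells, was higher in labelled knockout cells by 2.02 and 1.72, and Rgma, a ligand of neogenin, had log2 differences of -1.58 and -2.01.

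The neuropilins also serve vascular endothelial growth factors. Among 8 tested ligands and receptors of that family, 2 rose and 4 fell with PDGF-BB in wild-type cells, and 1 rose and 4 fell in labelled knockout cells (75% and 62.5% called, beside 59.4% and 42.4% of all genes). Flt1, a receptor that binds the factor tightly, rose by 1.69 and 1.61 on the log2 scale. Vegfd fell by 1.06 and 0.94, and by genotype label its log2 difference was -1.30 without and -1.18 with PDGF-BB.

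Tigar lies on chromosome 6 (127085116 to 127109557, GRCm38.p6), and 6 tested guidance genes lie on the same chromosome, with starts 11.1 Mb (Plxnd1), 37.8 Mb (Plxna1), 44.2 Mb (Sema4f), 84.7 Mb (Epha1), 85.5 Mb (Ephb6) and 94.9 Mb (Plxna4) from that of Tigar. By genotype label 5 of these 6 were called without PDGF-BB and 4 with it, and 3 and 4 of them differed by at least 1 on the log2 scale. On other chromosomes 27 of 40 members were called without and 23 of 40 with PDGF-BB, with 6 past that size in each case. Among all tested genes 39.6% on chromosome 6 and 33.7% elsewhere were called without PDGF-BB, and 8.16% and 5.1% had called differences of at least 1. With PDGF-BB 40.9% and 37% were called, and 6.36% and 4.64% had called differences of that size.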
